A study of Arabidopsis thaliana with 6 samples.

Results

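Legume-type lectins are proteins with a carbohydrate-binding domain first known from legume seeds. In Arabidopsis most of them are L-type lectin receptor kinases (LecRKs), in which that domain lies outside the cell and is joined through the membrane to a protein kinase. The soluble members are secreted or free lectins without a kinase. Several LecRKs are known from immunity, where they sense signals released by damaged cells such as extracellular ATP and NAD+, or act in stomatal closure and in resistance to bacteria and oomycetes.

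The members were the rows of the deposited table with 1 of 43 locus identifiers, out of 27416 genes. They comprise 40 LecRKs of clades I to IX and of the singleton group S, and 3 soluble lectins (AT3G16530, AT3G15356 and AT5G03350). LecRK names are those of RefSeq. All 43 were found in the table, and all 43 matched a protein-coding gene in RefSeq by locus identifier. The members were taken by gene family and not by a measured value, but with earlier results of these data known.

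RNA was sequenced from wild-type Arabidopsis thaliana seedlings, 7 days old. The 3 CLE9 libraries came from seedlings given CLE9, a small secreted signalling peptide, at 200 nM, and the 3 water libraries from seedlings given water (ddH2O). Neither the length of the exposure nor whether libraries stem from separate cultures is stated, so p-values measure library-to-library spread that may be technical. Levels are FPKM (fragments per kilobase of transcript per 1e6 mapped fragments), which are set per length and can be compared between genes. In seedlings, which hold many cell types, a change in the number of cells of a type and a change of RNA per cell cannot be told apart.

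CLE9 replicate 2 and water replicate 2 differed from the other 4 libraries. All 18 genes of a touch and wounding list were above both other libraries of their group in CLE9 replicate 2 and in water replicate 2, with median differences of 3.06 and 4.10 on the log2(FPKM + 1) scale. The summed level of 6 shoot markers was 9632.6 FPKM in CLE9 replicate 2 and between 23289.6 and 27094 FPKM in the other 5 libraries. For 8 root markers the sum was 45.1 FPKM in CLE9 replicate 2 and 53.6 FPKM in water replicate 2, against 101.6 to 154.5 FPKM elsewhere. RHD6 was listed at 0 in CLE9 replicate 2, while SHR (11.8 FPKM) was highest of its group there. Below both other libraries of the group were 6 of 6 shoot markers in CLE9 replicate 2 and 5 in water replicate 2. For root markers these were 6 and 8 of 8, against 10226 and 10620 of all 17812 genes tested. The part of these shifts in the results was not tested, and counts of members with an adjusted p under 0.05 are also given without both replicate 2 libraries. The touch and wounding list also differed between the groups in replicates 1 and 3 (below). Depth, estimated from the lowest values, was between 19.9 and 30.8 times 1e6 fragments per library.

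The genes lie partly in arrays. Of the 43 members, 28 stand in 9 arrays in which neighbouring members are under 20000 bases apart (coordinates of the deposited table, TAIR10). The longest holds LecRK-I.1 to LecRK-I.6 (chromosome 3, 16632440 to 16666884), and others hold LecRK-I.7 to LecRK-I.11 (chromosome 5, 24257745 to 24272835), LecRK-V.5 to LecRK-V.8 (chromosome 3, 22052133 to 22071821) and LecRK-VI.2 to LecRK-VI.4 (chromosome 5, 210979 to 220530). In RefSeq 35 members have their coding sequence in 1 exon. Coding sequences were between 66.1% and 89.7% identical to the closest other member, and 12 members were at 85% or more. The closest were AT3G16530 and AT3G15356, so fragments may have been divided between these 2 in the authors' counting. LecRK-I.9 and LecRK-I.10 overlap at their ends on the same strand.

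Promoter windows are shown for the 6 members called higher only when the replicate number was a block (below), and for AT3G15356, the closest relative of AT3G16530. With group only none was called. Each window holds the 250 bases before the gene start, 5′ to 3′ on the strand of the gene, from RefSeq (build TAIR10.1), whose gene models had the same start and end as the table's in 19.0% of genes matched. Capitals mark TTGAC or its reverse complement GTCAA, the core of the W-box, which is known as the binding site of WRKY transcription factors.
AT3G16530 (chr3:5625520-5625769, minus strand): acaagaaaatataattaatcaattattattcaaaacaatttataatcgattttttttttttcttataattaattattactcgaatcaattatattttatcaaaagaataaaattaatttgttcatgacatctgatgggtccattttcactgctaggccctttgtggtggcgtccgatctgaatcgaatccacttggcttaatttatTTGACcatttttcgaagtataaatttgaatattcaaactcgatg
AT3G15356 (chr3:5175524-5175773, minus strand): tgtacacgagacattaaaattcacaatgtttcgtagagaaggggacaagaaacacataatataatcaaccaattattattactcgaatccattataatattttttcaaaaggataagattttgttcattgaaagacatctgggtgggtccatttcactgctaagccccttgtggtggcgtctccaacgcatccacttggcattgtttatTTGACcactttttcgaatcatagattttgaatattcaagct
LecRK-V.5 (chr3:22051871-22052120, plus strand): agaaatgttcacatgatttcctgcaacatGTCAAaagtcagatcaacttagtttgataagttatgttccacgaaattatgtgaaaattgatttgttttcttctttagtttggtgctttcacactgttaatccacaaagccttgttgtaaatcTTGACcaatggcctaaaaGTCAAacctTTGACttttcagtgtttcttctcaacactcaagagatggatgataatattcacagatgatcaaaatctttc
LecRK-V.9 (chr4:14317023-14317272, minus strand): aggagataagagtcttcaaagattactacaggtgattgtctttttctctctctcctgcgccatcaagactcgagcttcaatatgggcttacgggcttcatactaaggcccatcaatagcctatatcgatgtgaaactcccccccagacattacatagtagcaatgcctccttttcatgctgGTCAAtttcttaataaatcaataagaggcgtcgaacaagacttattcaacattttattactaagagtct
LecRK-VI.3 (chr5:216774-217023, minus strand): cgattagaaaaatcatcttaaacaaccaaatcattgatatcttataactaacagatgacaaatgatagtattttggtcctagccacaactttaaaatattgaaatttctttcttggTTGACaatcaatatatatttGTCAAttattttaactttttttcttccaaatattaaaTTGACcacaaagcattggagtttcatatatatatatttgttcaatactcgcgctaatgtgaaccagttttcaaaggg
LecRK-VII.2 (chr4:14026327-14026576, plus strand): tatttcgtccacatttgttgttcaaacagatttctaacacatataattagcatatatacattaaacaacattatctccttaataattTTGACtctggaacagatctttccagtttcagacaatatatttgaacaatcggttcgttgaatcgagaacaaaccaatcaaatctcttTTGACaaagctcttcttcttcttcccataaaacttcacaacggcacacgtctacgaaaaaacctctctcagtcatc
LecRK-IX.2 (chr5:26218624-26218873, minus strand): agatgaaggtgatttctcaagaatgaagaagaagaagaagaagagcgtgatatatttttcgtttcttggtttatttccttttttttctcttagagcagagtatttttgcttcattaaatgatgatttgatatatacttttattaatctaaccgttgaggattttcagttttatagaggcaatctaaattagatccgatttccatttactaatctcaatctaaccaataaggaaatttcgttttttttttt

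The windows of AT3G16530 and AT3G15356 were 85.4% identical over 219 aligned bases. Both hold 1 W-box core, centred 42 bases before the start in AT3G16530 and 39 in AT3G15356. LecRK-V.5 holds 4 cores, LecRK-VI.3 holds 3, LecRK-VII.2 holds 2, LecRK-V.9 holds 1 and LecRK-IX.2 none. The windows follow RefSeq starts, and that of LecRK-IX.2 begins at 26218624, away from its start at 26218153 in the deposited table. Those of LecRK-VI.3 (216774, start at 216583) and LecRK-V.9 (14317023, start at 14316879) also lie away from the starts of that table. So do those of AT3G16530 (5625520, start at 5625470) and AT3G15356 (5175524, start at 5175469). The counts of cores may thus depend on the start used. Counts by the starts of that table were not made. Over all 43 members, 28 windows (65.1%) hold at least 1 core and 13 (30.2%) hold 2 or more, against 44.9% and 14.1% of the windows of 27443 protein-coding genes. By call, a core was in 5 of the 6 windows of genes called higher with the block, in 12 of the 19 of other tested members and in 11 of the 18 of members too low to test. A second motif, CGCGT on either strand, was in 3 of 43 member windows (6.98%) and in 6.87% of all windows. These are matches of 5 letters on either strand, which may share bases, and describe the sequence only.

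**Figure D1:**
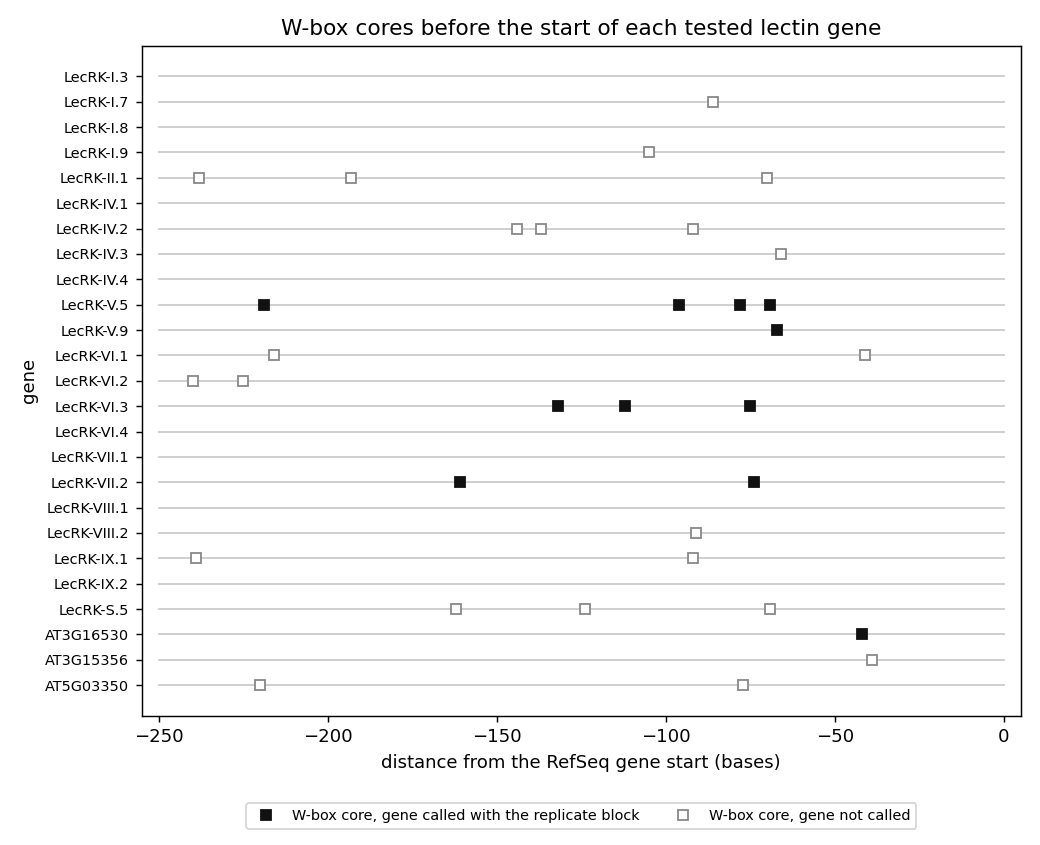
Position of each W-box core (TTGAC on either strand; squares) in the 250 bases before the RefSeq start of the 25 tested lectin genes; the x axis is the distance from the start in bases. Filled squares mark genes called with the replicate block, of which LecRK-V.5 has 4 cores and LecRK-IX.2 none.

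With CLE9 set against water, the question was which lectin genes change under the peptide. With group only no member was called. LecRK-I.3, LecRK-I.9, LecRK-IX.1 and both members of clade VIII had log2 changes of 0.14 or less in size. With the replicate number as a block, the soluble lectin gene AT3G16530 and 5 LecRK genes of clades V, VI, VII and IX were called higher. None of these 6 was called with a pseudocount of 0.1 or with no filter on low values. The pairing behind the block rests largely on replicate 2. Of the 43 members, 25 averaged at least 1 FPKM across all 6 libraries and were tested, and none of these had a mean under 1 FPKM in either group. All changes are CLE9 minus water on the log2(FPKM + 1) scale, which understates the change of low genes, with the standard error (SE) from limma. The test with group as its only term called 0 of 25 members (adjusted p under 0.05 over all 17812 genes tested), where 0.0% of all genes were called higher and 0.00561% lower. At an unadjusted p under 0.05, 7 of the 25 were higher and 0 lower, against 5.83% of all genes higher.

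With the replicate number of the labels as a block, 6 of the 25 rose and 0 fell, against 1.75% of all genes tested that rose and 0.247% that fell. The 6 were AT3G16530, LecRK-V.5, LecRK-V.9, LecRK-VI.3, LecRK-VII.2 and LecRK-IX.2. The blocked count for the members was 0 without pair 1 or without pair 3 (0.0% of all genes in both) and 13 without pair 2 (8.03%). It was 0 with a pseudocount of 0.1 in place of 1 (0.00561%) and 0 with no filter on low values (0.0%). It was 9 with quantile normalization (3.45% of all genes), 10 with median centring (3.78%) and 12 with array weights (6.3%), which let libraries that stand apart count less. With group only it was 17 with array weights, against 14.7% of all genes, and 2 without water replicate 2, against 1.09%. With group only and no filter or quantile normalization it was 0, against 0.00365% and 0.00561% of all genes. Without both replicate 2 libraries and with group only, 13 of the 25 rose and 0 fell (8.41% and 2.95% of all genes), and all 6 were among the 13. This compares 2 libraries with 2 that are part of the same 6, so it is no separate support.

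When libraries were paired by number, 17 of the 25 were higher with CLE9 in all 3 pairs and 1 was lower in all 3, against 19.8% and 26.0% of all genes tested. The CLE9 libraries were all above the water libraries in 6 of the 25 and all below them in 0, against 8.51% and 7.47% of all genes. The median change was 0.80 over the 25 and -0.055 over all genes tested. Over all 43 members, low ones included, it was 0.26, against 0 over all 27416 genes.

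**Figure D2:**
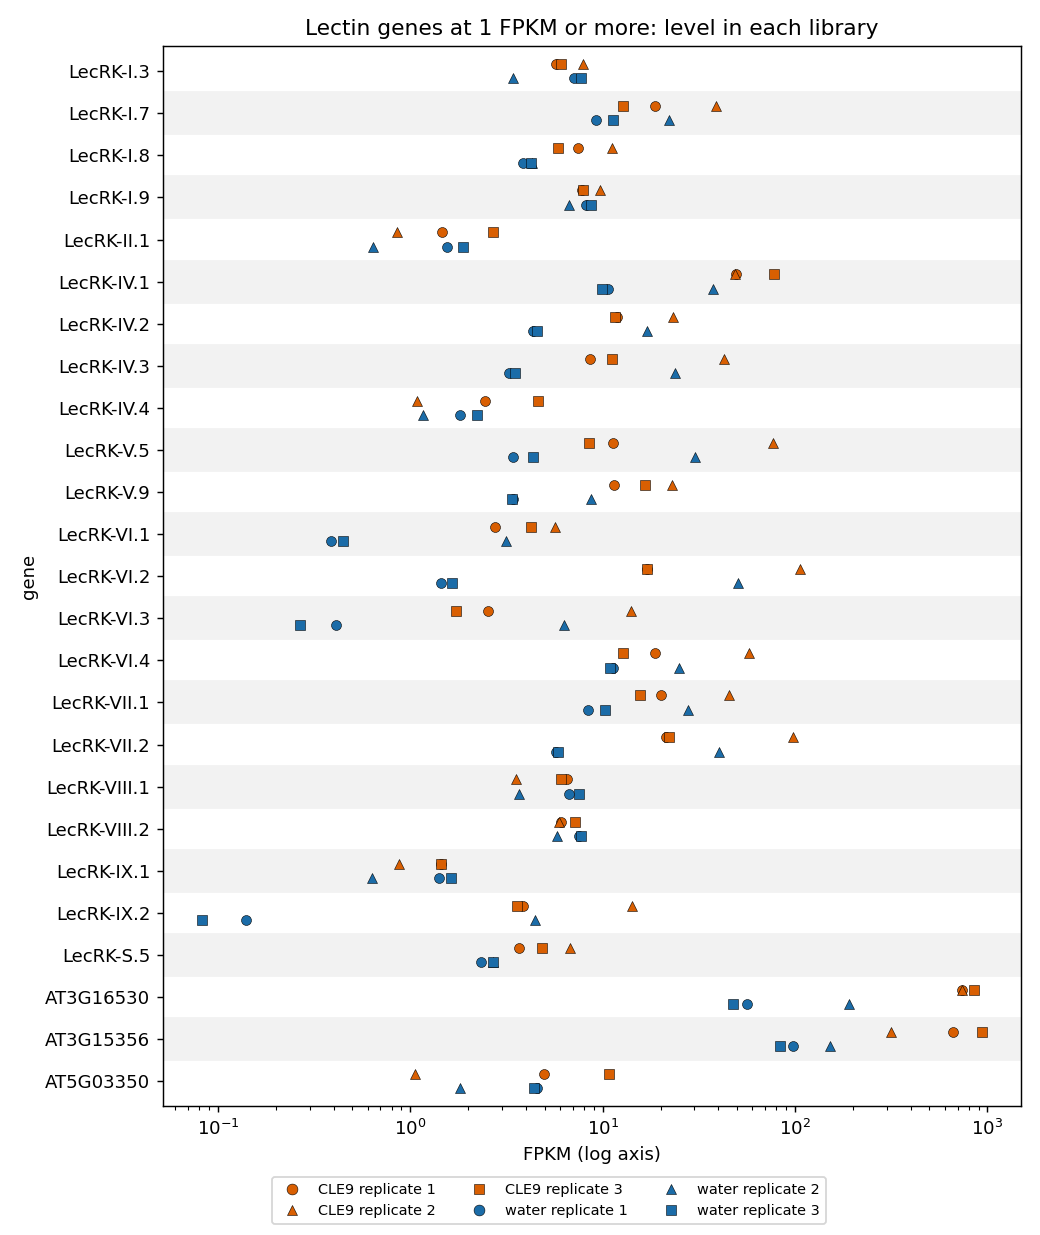
Level of the 25 tested lectin genes in each library (FPKM, log axis), CLE9 libraries above water libraries in each row, with the marker shape giving the replicate number. In AT3G16530 all 3 CLE9 libraries lie between 734 and 854 FPKM, above the water libraries at 47.5 to 190.0 FPKM, while replicate 2 (triangles) is the highest library of its group in many LecRKs.

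Among the soluble lectins, AT3G16530 and AT3G15356 held the highest levels of the 43 members. AT3G16530 passed in the blocked fit only, and AT3G15356 and AT5G03350 passed neither the group-only nor the blocked fit. With the pseudocount of 1 AT3G16530 and AT3G15356 also had the largest log2 changes of the 25 tested members. With 0.1 LecRK-IX.2 (3.35) came before AT3G16530 (3.28), and LecRK-VI.2 (2.61) before AT3G15356 (2.44). AT3G16530 (chromosome 3, 5624377 to 5625470), a lectin known to be induced by chitin oligomers, was at 741, 734 and 854 FPKM in CLE9 replicates 1, 2 and 3, against 56.3, 190.0 and 47.5 FPKM in water replicates 1, 2 and 3. All CLE9 libraries were above all water libraries, and water replicate 2 was above the other water libraries. Its mean was 7.93-fold higher with CLE9 on the FPKM scale, and its log2 change was 3.26 ± 0.54 (SE; limma adjusted p = 0.244 in the group-only fit and 0.0471 in the blocked fit).

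AT3G15356 (chromosome 3, 5174402 to 5175469) was at 666, 317 and 932 FPKM in CLE9 replicates 1, 2 and 3, against 97.3, 152 and 83.6 FPKM in water replicates 1, 2 and 3. The groups did not overlap, and CLE9 replicate 2 was the lowest CLE9 library. Its mean was 5.76-fold higher with CLE9, with a log2 change of 2.43 ± 0.47 (SE; limma adjusted p = 0.255 in the group-only fit, 0.0741 in the blocked fit). AT3G15356 was not called with the block, but was called without both replicate 2 libraries (limma adjusted p = 9.3e-04).

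AT5G03350 (chromosome 5, 815674 to 816658), a lectin known to be induced by salicylic acid, was at 4.98, 1.06 and 10.8 FPKM in CLE9 replicates 1, 2 and 3, against 4.57, 1.81 and 4.40 FPKM in water replicates 1, 2 and 3. The groups overlapped, and replicate 2 was the lowest library of each group. Its log2 change was 0.26 ± 0.66 (SE; limma adjusted p = 0.942 with group only), and it was -0.32 without CLE9 replicate 3.

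The LecRKs with a known part in the sensing of extracellular nucleotides had unlike values. LecRK-I.9 (AT5G60300, chromosome 5, 24264622 to 24268029), also known as DORN1, the receptor of extracellular ATP, was at 7.81, 9.68 and 7.89 FPKM in CLE9 replicates 1, 2 and 3, against 8.22, 6.66 and 8.72 FPKM in water replicates 1, 2 and 3. The groups overlapped, and the log2 change was 0.094 ± 0.17 (SE; limma adjusted p = 0.915 with group only).

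LecRK-I.5 (AT3G45430, chromosome 3, 16660759 to 16662783), another receptor of extracellular ATP, was below 1 FPKM in every library. It was at 0.636, 0.0971 and 0.503 FPKM with CLE9, against 0.662, 0.228 and 0.841 FPKM with water, in the order of the replicates, and it was lower with CLE9 in all 3 pairs. It was too low for the test.

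LecRK-I.8 (AT5G60280, chromosome 5, 24260563 to 24262536), known to bind extracellular NAD+, was at 7.47, 11.1 and 5.87 FPKM in CLE9 replicates 1, 2 and 3, against 3.87, 4.28 and 4.23 FPKM in water replicates 1, 2 and 3. All CLE9 libraries were above all water libraries, and water replicate 2 lay close to the other water libraries. The log2 change was 0.80 ± 0.24 (SE; limma adjusted p = 0.401 in the group-only fit, 0.108 in the blocked fit), so it did not pass.

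LecRK-VI.2 (AT5G01540, chromosome 5, 210979 to 213472), a kinase of bacterial resistance and NAD+ signalling that acts with the co-receptor BAK1, was at 17.04, 106 and 17.07 FPKM in CLE9 replicates 1, 2 and 3, against 1.44, 50.4 and 1.65 FPKM in water replicates 1, 2 and 3. CLE9 was higher in each pair, but water replicate 2 was above CLE9 replicates 1 and 3, so the groups overlapped. The log2 change was 2.24 ± 1.37 (SE; limma adjusted p = 0.717 in the group-only fit, 0.0588 in the blocked fit). Without both replicate 2 libraries it was called at 2.83 ± 0.13 (SE; limma adjusted p = 4.6e-04).

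The LecRKs that rose with the block came from clades V, VI, VII and IX. LecRK-IX.2 (AT5G65600, chromosome 5, 26216126 to 26218153), known for resistance to Phytophthora and for cell death when overexpressed, was at 3.87, 14.2 and 3.59 FPKM in CLE9 replicates 1, 2 and 3, against 0.140, 4.42 and 0.0825 FPKM in water replicates 1, 2 and 3. It was low in water replicates 1 and 3 and higher with CLE9 in each pair, and the groups overlapped because water replicate 2 exceeded CLE9 replicates 1 and 3. Its log2 change was 1.89 ± 0.78 with group only (SE; limma adjusted p = 0.567), and the SE was 0.19 with the block (limma adjusted p = 0.0339).

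LecRK-VII.2 (AT4G28350, chromosome 4, 14026577 to 14028622) was at 21.4, 98.1 and 22.3 FPKM in CLE9 replicates 1, 2 and 3, against 5.73, 40.4 and 5.85 FPKM in water replicates 1, 2 and 3. Replicates 1 and 3 were alike within each group, and replicate 2 was the highest library of each. The log2 change was 1.59 ± 0.17 with the block (SE; limma adjusted p = 0.0358, and 0.707 with group only). With group only it was 0.88 without CLE9 replicate 2 and 2.46 without water replicate 2.

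LecRK-V.9 (AT4G29050, chromosome 4, 14314818 to 14316879) was at 11.5, 23.0 and 16.6 FPKM in CLE9 replicates 1, 2 and 3, against 3.43, 8.69 and 3.36 FPKM in water replicates 1, 2 and 3. It was the only LecRK called with the block whose groups did not overlap. The log2 change was 1.61 ± 0.19 with the block (SE; limma adjusted p = 0.0383, and 0.328 with group only).

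LecRK-V.5 (AT3G59700, chromosome 3, 22052133 to 22054275), known as a negative regulator of stomatal immunity, was at 11.4, 77.2 and 8.503 FPKM in CLE9 replicates 1, 2 and 3, against 3.42, 30.2 and 4.35 FPKM in water replicates 1, 2 and 3. The groups overlapped, and replicate 2 was the highest library of each group. The log2 change was 1.21 ± 0.18 with the block (SE; limma adjusted p = 0.0495, and 0.795 with group only). With group only it was 0.26 without CLE9 replicate 2, 0.70 without water replicate 1 and 2.11 without water replicate 2.

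LecRK-VI.3 (AT5G01550, chromosome 5, 214517 to 216583), which lies next to LecRK-VI.2 and like it is known to dampen the response to abscisic acid in germination, was at 2.54, 14.1 and 1.73 FPKM in CLE9 replicates 1, 2 and 3, against 0.410, 6.28 and 0.266 FPKM in water replicates 1, 2 and 3. It was higher with CLE9 in each pair, and water replicate 2 exceeded CLE9 replicates 1 and 3. The log2 change was 1.16 ± 0.15 with the block (SE; limma adjusted p = 0.0423, and 0.772 with group only). With group only it was 0.40 without CLE9 replicate 2, 1.98 without water replicate 2 and 0.72 without water replicate 3.

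**Figure D3:**
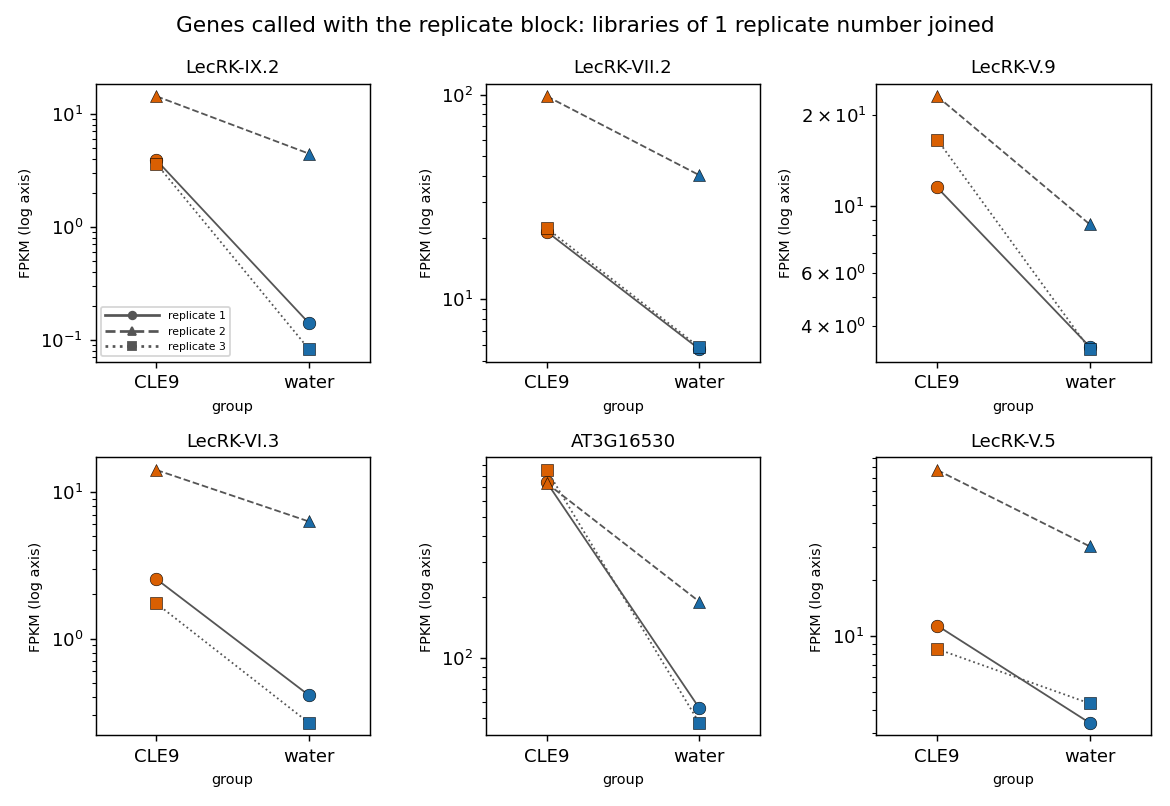
Level (FPKM, log axis) of the 6 members called with the replicate block in CLE9 libraries (left) and water libraries (right), with libraries of the same replicate number joined by a line. Every line is higher at its CLE9 end, which the choice of genes by a positive blocked call over these pairs makes likely in advance. In 5 of the 6 genes, all but AT3G16530, replicate 2 is the highest library of both groups.

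Other LecRKs, with log2 changes from 0.35 (LecRK-IV.4) to 1.79 (LecRK-IV.1), did not pass either test over all 6 libraries. LecRK-IV.1 (AT2G37710, chromosome 2, 15814718 to 15817004) was at 49.5, 49.0 and 78.2 FPKM in CLE9 replicates 1, 2 and 3, against 10.7, 37.2 and 9.91 FPKM in water replicates 1, 2 and 3. The groups did not overlap, and the water libraries differed among themselves more than the CLE9 libraries did on the log scale. Its log2 change was 1.79 ± 0.53 (SE; limma adjusted p = 0.399 with group only, 0.128 with the block and 0.0026 without both replicate 2 libraries).

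In the same clade, LecRK-IV.2 (AT3G53810), known from pollen development, averaged 15.5 ± 6.68 FPKM with CLE9 and 8.62 ± 7.23 FPKM with water (SD, n = 3 each). LecRK-IV.3 (AT4G02410), known for a part in salt tolerance and in resistance to Botrytis, averaged 20.9 ± 19.0 FPKM with CLE9 and 10.2 ± 11.8 FPKM with water (SD, n = 3 each). Their log2 changes were 0.96 and 1.15, with limma adjusted p-values of 0.0874 and 0.0505 with the block and 0.00366 and 0.00708 without both replicate 2 libraries. LecRK-IV.4 (AT4G02420), the neighbour of LecRK-IV.3 with 83.9% coding identity, had a change of 0.35 ± 0.39 (SE), and it was lower with CLE9 in pair 2.

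In clade VI, LecRK-VI.1 (AT3G08870) averaged 4.22 ± 1.46 FPKM with CLE9 and 1.33 ± 1.58 FPKM with water (SD, n = 3 each) with a log2 change of 1.33 ± 0.48 (SE), and LecRK-VI.4 (AT5G01560) averaged 29.8 ± 24.5 FPKM with CLE9 and 15.7 ± 7.93 FPKM with water (SD, n = 3 each) with one of 0.70 ± 0.61 (SE). All 4 members of the clade were higher with CLE9 in all 3 pairs, and in all 4 water replicate 2 was above the other water libraries. LecRK-VI.1 was called without both replicate 2 libraries (limma adjusted p = 0.00643) and LecRK-VI.4 was not (0.223). LecRK-VII.1 (AT4G04960), known from stomatal immunity, had a change of 0.80 ± 0.56 (SE) and was also called without them (limma adjusted p = 0.0344).

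LecRK-S.5 (AT5G06740, chromosome 5, 2084094 to 2086052) was at 3.67, 6.73 and 4.87 FPKM in CLE9 replicates 1, 2 and 3, against 2.32, 2.70 and 2.68 FPKM in water replicates 1, 2 and 3. All CLE9 libraries were above all water libraries, as in LecRK-I.8, and the 3 water libraries lay close together. Its log2 change was 0.74 ± 0.22 (SE; limma adjusted p = 0.406 in the group-only fit, 0.095 in the blocked fit).

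**Figure D4:**
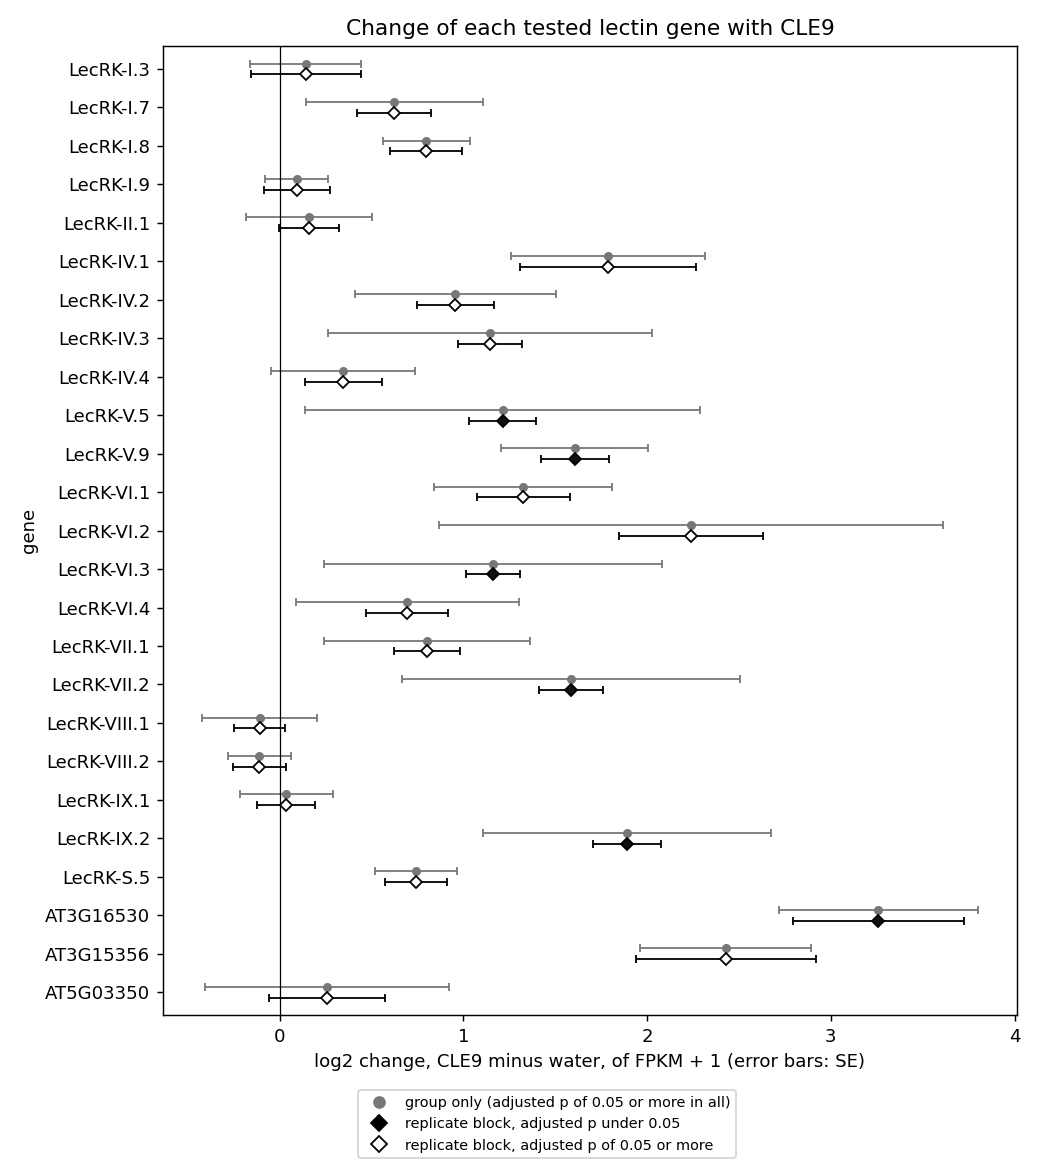
Change of each of the 25 tested lectin genes (x axis, CLE9 minus water in log2 of FPKM + 1; error bars are SE), with group only (grey circles) and with the replicate block (diamonds, filled where adjusted p is under 0.05). The 6 filled diamonds lie between 1.16 and 3.26, and the SE of LecRK-V.5 is 0.18 with the block, against 1.07 with group only.

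The remaining tested LecRKs had log2 changes of 0.63 or less in size. LecRK-I.7 (AT5G60270) had a log2 change of 0.63 ± 0.48 (SE), at 18.7, 38.7 and 12.8 FPKM with CLE9, against 9.28, 22.2 and 11.4 FPKM with water, and was higher with CLE9 in each pair. LecRK-I.3 (AT3G45410), known from responses to salt and ethylene, had one of 0.14 ± 0.30, and LecRK-II.1 (AT5G59260) one of 0.16 ± 0.34. LecRK-IX.1 (AT5G10530), which like LecRK-IX.2 is known from Phytophthora resistance, was at 1.44, 0.872 and 1.45 FPKM with CLE9, against 1.42, 0.634 and 1.63 FPKM with water, with a change of 0.035 ± 0.25 (SE), while LecRK-IX.2 was called with the block. The difference between the changes of these 2 genes was not tested. In clade VIII the changes were -0.11 ± 0.31 for LecRK-VIII.1 (AT3G53380) and -0.11 ± 0.17 for LecRK-VIII.2 (AT5G03140; SE). None of these 6 passed either fit. In the blocked one their limma adjusted p-values were between 0.181 and 0.924. The sign of the change turned under at least 1 other setting for LecRK-I.3, LecRK-II.1, LecRK-IX.1 and LecRK-VIII.1, and also for LecRK-I.9, LecRK-IV.4 and AT5G03350.

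The arrays held members with unlike levels. In LecRK-I.1 to LecRK-I.6, LecRK-I.3 averaged 6.57 ± 1.17 FPKM with CLE9 and 6.10 ± 2.33 FPKM with water (SD, n = 3 each), and the other 5 had means under 1 FPKM over the 6 libraries. In LecRK-V.5 to LecRK-V.8, LecRK-V.5 averaged 32.4 ± 38.9 FPKM with CLE9 and 12.6 ± 15.2 FPKM with water (SD, n = 3 each), and the other 3 were below 1 FPKM in every library. In LecRK-VI.2 to LecRK-VI.4 all 3 were tested.

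The 18 members below the filter had means of at most 0.743 FPKM over the 6 libraries, and no single value of them was above 1.38 FPKM. LecRK-V.1 was listed at 0 in all 6 libraries, and 7 of the 18 were listed at 0 in at least 1 library. CLE9 was above water without overlap in 3 of the 18. The share of all genes below the filter with such values was not computed, so whether 3 is many cannot be said. LecRK-I.1 (AT3G45330), known from the response to insect eggs, was at 0.685, 1.35 and 1.38 FPKM with CLE9, against 0.507, 0.0989 and 0.436 FPKM with water, and LecRK-V.8 (AT3G59750) was at 0.632, 0.924 and 0.684 FPKM with CLE9, against 0.0190, 0.220 and 0.118 FPKM with water. LecRK-V.7 (AT3G59740) was at 0.0719, 0.0967 and 0.0650 FPKM with CLE9, against 0, 0 and 0.00692 FPKM with water. These values rest on few fragments, since 1 fragment per kilobase was estimated at 0.0324 FPKM in water replicate 3 and 0.0502 FPKM in CLE9 replicate 2. LecRK-V.7 and its neighbour LecRK-V.8 were 86.2% identical in coding sequence, and whether they shared fragments with each other or with LecRK-V.5 was not tested. With no filter on low values, the smallest limma adjusted p of the 18 was 0.252. The rest of the 18 (LecRK-I.2, LecRK-I.4, LecRK-I.5, LecRK-I.6, LecRK-I.10, LecRK-I.11, LecRK-II.2, LecRK-III.1, LecRK-III.2, LecRK-V.1, LecRK-V.2, LecRK-V.3, LecRK-V.4, LecRK-V.6 and LecRK-S.7) had groups that overlapped or were listed at 0.

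Many of the members were high in water replicate 2. Of the 25 tested, 17 were above both other water libraries in water replicate 2 and 16 were above both other CLE9 libraries in CLE9 replicate 2, against 30.3% and 29.7% of all genes tested. Below both were 8 in water replicate 2 and 9 in CLE9 replicate 2, against 10620 and 10226 of all 17812 genes tested. The 8 were LecRK-I.3, LecRK-I.9, LecRK-II.1, LecRK-IV.4, LecRK-VIII.1, LecRK-VIII.2, LecRK-IX.1 and AT5G03350. The values below set CLE9 replicates 1 and 3 and water replicate 2 each against the mean of water replicates 1 and 3, which both differences share, on the log2(FPKM + 1) scale. For the soluble lectins the CLE9 difference was the larger, at 3.92 against 1.86 for water replicate 2 in AT3G16530, and at 3.11 against 0.74 in AT3G15356. LecRK-IV.1 (2.49 against 1.76), LecRK-V.9 (1.75 against 1.14) and LecRK-VI.1 (1.65 against 1.55) had the same order.

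In LecRK-I.8 and LecRK-S.5 water replicate 2 differed little from the other water libraries (0.067 and 0.080), and CLE9 replicates 1 and 3 were higher by 0.60 and 0.58. In LecRK-VI.2 the difference for water replicate 2 was the larger, with 2.83 for CLE9 and 4.34 for water replicate 2. The same order was seen in LecRK-V.5 (1.16 and 2.68), LecRK-VI.3 (1.22 and 2.45), LecRK-IV.3 (1.31 and 2.50) and LecRK-VII.2 (1.75 and 2.61). It was also seen in LecRK-IX.2 (2.09 and 2.29), LecRK-IV.2 (1.22 and 1.72) and LecRK-VII.1 (0.86 and 1.48). LecRK-VI.4 (0.45 and 1.10) and LecRK-I.7 (0.55 and 1.04) had it too. The touch and wounding list was high in the same library. Its summed level was also higher in CLE9 replicates 1 and 3 (1901 and 1854 FPKM) than in water replicates 1 and 3 (824 and 773 FPKM). Without both replicate 2 libraries, 9 of its 18 genes were called higher and 2 lower, against 8.41% and 2.95% of all genes. With the block 0 were called, against 1.75% and 0.247% of all genes. The part of this list in the levels of the members was not tested.

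**Figure D5:**
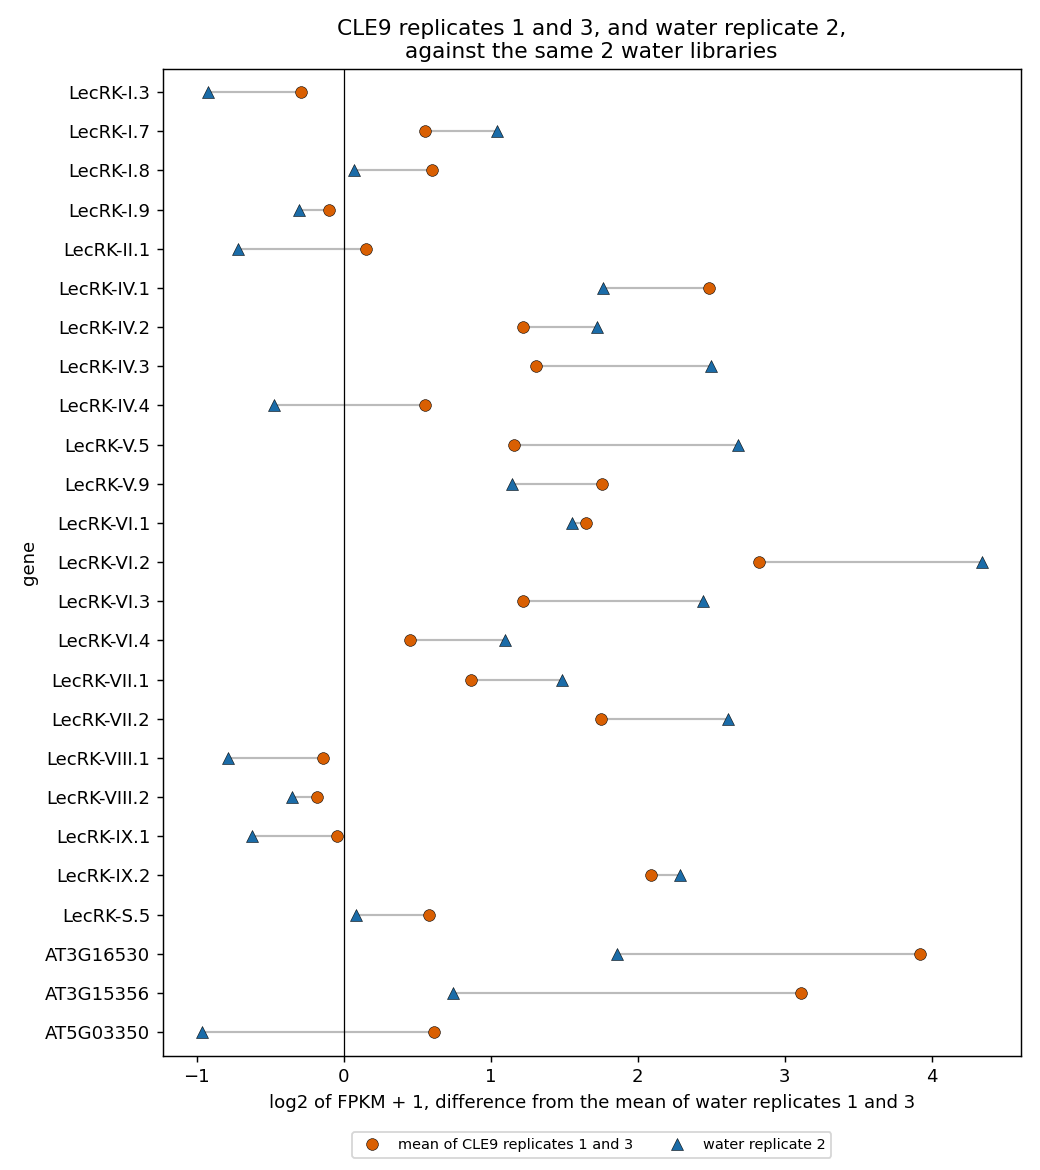
Difference from the mean of water replicates 1 and 3 (x axis, log2 of FPKM + 1) for the mean of CLE9 replicates 1 and 3 (circles) and for water replicate 2 (triangles) in the 25 tested lectin genes. The circle lies to the right of the triangle in AT3G16530 and AT3G15356, and to the left in LecRK-VI.2 and LecRK-V.5.

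Lists of genes of extracellular nucleotide signalling and of other pattern receptors, chosen by hand, were read from the same fits. Whether these genes act with the LecRKs was not tested. Of 16 genes of extracellular nucleotide signalling, 0 were called with group only. With the block 2 rose and 0 fell, against 1.75% and 0.247% of all genes tested. The 2 were BAK1, the co-receptor of several immune receptors, and RBOHD, the NADPH oxidase of the immune oxidative burst. BAK1 was at 78.9, 95.7 and 79.2 FPKM with CLE9, against 23.0, 44.8 and 24.6 FPKM with water, and its groups did not overlap. RBOHD was at 41.6, 161 and 55.4 FPKM with CLE9, against 14.6, 66.8 and 12.8 FPKM with water, and its groups overlapped. BAK1 had a log2 change of 1.49 ± 0.20 with the block (SE; limma adjusted p = 0.0435), and RBOHD one of 1.58 ± 0.21 (SE; limma adjusted p = 0.0426). At an unadjusted p under 0.05 with group only, 2 of the 16 were higher (BAK1 and the kinase gene PBL1) and 2 lower (the cation channel genes CNGC2 and CNGC4). Of all 17812 genes tested, 1039 were higher and 547 lower at that threshold. The median change of the 16 was 0.32. CNGC2 and CNGC4 had changes of -0.55 and -0.60 with groups that did not overlap, and passed neither fit. Without both replicate 2 libraries, 6 of the 16 rose and 1, CNGC4, fell, against 8.41% and 2.95% of all genes.

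Of 10 other pattern receptor genes 9 were tested. All 9 were higher with CLE9 in all 3 pairs (19.8% of all genes tested) and had a median change of 1.69. Water replicate 2 was above both other water libraries in all 9 (30.3% of all genes tested). With group only 0 were called, and 5 were higher at an unadjusted p under 0.05, against 5.83% of all genes. The 5 were CERK1, LYK4, PEPR1, BKK1 and LORE, named after their values were seen. With the block 2 rose (1.75% of all genes), the chitin receptor kinase gene CERK1 and the BAK1 relative BKK1. CERK1 was at 54.0, 44.3 and 66.6 FPKM with CLE9, against 9.53, 18.9 and 10.9 FPKM with water, with a log2 change of 2.02 (limma adjusted p = 0.0482 with the block). BKK1 was at 53.2, 89.6 and 49.6 FPKM with CLE9, against 8.70, 30.8 and 8.86 FPKM with water, with one of 2.12 (limma adjusted p = 0.0362 with the block). The groups did not overlap in either gene, and water replicate 2 was the highest water library in both. Without both replicate 2 libraries 9 of 9 rose (8.41% of all genes).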

How the data were processed

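Libraries were made from total RNA of seedlings with the NEBNext Ultra kit, per the labels' protocols. Values are FPKM per gene and library as the authors deposited them, per the file headers. Build TAIR10 and the tools DESeq2 1.16.1, featureCounts 1.5.0-p3, StringTie 1.3.3b, HISAT2 2.0.5 and CASAVA 1.8 stand in the submitters' processing notes, without roles. The strand setting is not stated there. Groups follow the treatment label (3 CLE9 and 3 water libraries).

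All 17812 genes that averaged at least 1 FPKM across the 6 libraries were fitted as log2(FPKM + 1) with limma 3.58.1 in R 4.3.3 (empirical Bayes with a mean-variance trend, two-sided, Benjamini-Hochberg over all genes tested, called at an adjusted p under 0.05). An exact permutation test of 3 against 3 cannot go below p = 0.1. Depth is approximate, read from the smallest steps of FPKM times length in 1604 single-exon genes.

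Replicate numbers are shared by both groups in the labels. Deviations from the group means correlated at 0.545, 0.743 and 0.583 across genes for same-numbered CLE9 and water libraries, each over 0.1, and on that ground same-numbered libraries were treated as pairs. CLE9 replicate 3 and water replicate 1 (0.664) correlated more than either did with its own number. So did CLE9 replicate 1 and water replicate 3 (0.620). The pairing thus rests largely on replicate 2, and whether replicates 1 and 3 are matched rightly cannot be told.

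Every member with a mean of 1 FPKM or more is named. Values by library are given for members called in either fit, for those whose groups do not overlap, for the soluble lectins and for LecRK-I.5, LecRK-I.8, LecRK-I.9 and LecRK-VI.2. The members, lists and several alternatives were chosen with earlier results of these data known. Alternatives were the pseudocount, the filter, scaling, array weights, the block and leaving out libraries. Promoter windows and coding sequences were read from RefSeq TAIR10.1 by its own gene models. Protein sequences were not used here.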

Additional observations from a re-analysis of the deposited data

How the results depend on the processing

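With group only, the count of members called higher was 0 with a pseudocount of 0.1, no filter, quantile normalization or median centring, and 17 with array weights. It was 6 with the replicate block and 13 with both replicate 2 libraries left out. It lay between 0 and 13 when libraries or pairs were left out 1 at a time. It was 2 (AT3G16530 and LecRK-IV.1) without water replicate 2, 13 in the blocked fit without pair 2, and 0 otherwise. Chosen after seeing the data, the blocked fit gave 9 with quantile normalization, 10 with median centring, 12 with array weights and 0 with a pseudocount of 0.1 or no filter. All 6 blocked calls were kept in the first 3. No member was called lower under any of these settings. Same-numbered libraries were treated as pairs, so the block is given beside the results it changes. It changed the call of no member other than the 6. Where the blocked count was 0, at most 0.00561% of all genes were called higher.

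The median change of tested members, 0.80, was 0.26 without a filter, with or without the block, since 18 low members then enter. It lay between 0.56 and 1.30 when 1 library or pair was left out, highest without water replicate 2.

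Of the members whose change turned sign under some setting, LecRK-IV.4 and AT5G03350 were called higher with array weights and the others under none. With group only and 1 library left out, the change of LecRK-I.3 lay between -0.17 and 0.32, of LecRK-I.9 between -0.0076 and 0.16, of LecRK-II.1 between -0.10 and 0.39, of LecRK-IV.4 between -0.0090 and 0.71, of LecRK-IX.1 between -0.17 and 0.17, of LecRK-VIII.1 between -0.37 and 0.12 and of AT5G03350 between -0.32 and 0.94. In the blocked fit without pair 3 that of AT5G03350 was -0.17. With group only and 1 library left out, the change of other members kept its sign but moved by over 1.5 times, to between 0.20 and 0.97 for LecRK-I.7, 0.64 and 1.53 for LecRK-IV.2, 0.47 and 1.98 for LecRK-IV.3, 1.38 and 3.68 for LecRK-VI.2, 0.084 and 1.13 for LecRK-VI.4, 0.37 and 1.30 for LecRK-VII.1 and -0.23 and -0.044 for LecRK-VIII.2. The lowest of these was without CLE9 replicate 2 in each but LecRK-VIII.2. Without both replicate 2 libraries the change was -0.29 for LecRK-I.3, -0.10 for LecRK-I.9 and -0.045 for LecRK-IX.1. With array weights the changes of these 3 were -0.20, -0.058 and -0.0030, and with array weights and the block -0.094, -0.014 and -0.015. Values near or below 1 FPKM rest on few fragments.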
